A study of Mus musculus with 6 samples.

Results

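Voltage-gated sodium channels, voltage-gated calcium channels and pacemaker channels were examined in heart tissue from sham mice and from mice after tail-suspension. The genes were taken by name from the array's design: all sodium channel alpha and beta subunits (Scn), all calcium channel alpha1, alpha2delta, beta and gamma subunits (Cacna, Cacnb, Cacng) and all HCN channels (Hcn). This gave 44 genes with 63 probes, of 36163 gene names with 55681 probes on the array. Each gene was read from the probe with the highest mean signal over the 6 arrays, so the choice used brightness and not the difference between the groups. All mice were male C57BL/6, 10 weeks old at the start by the treatment label. The age label of 11 weeks conflicts with that start followed by 28 days, so the age at sampling is uncertain. The sham group held 3 mice that were not suspended but were kept and fed in the same way, and the tail-suspension group held 3 mice whose hindlimbs were lifted off the floor by the tail for 28 days, a model of microgravity. Total RNA of cardiac muscle was labelled in 1 colour and hybridised to 1 array per mouse, and the labels do not say which chambers were taken.

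The action potential of a cardiomyocyte starts with sodium entry through a pore-forming alpha subunit whose gating and surface density are set by beta subunits. Calcium then enters through L-type channels, each built from a pore-forming alpha1 subunit with an alpha2delta and a beta subunit that bring it to the membrane, and this calcium triggers the release that makes the cell contract. T-type calcium channels and HCN channels open at negative voltages and carry part of the current that lets sinoatrial and conduction cells fire on their own.

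The results turn on Scn3a, Scn7a, Scn4b, Cacna1d, Cacna1g, Cacna2d1 and Cacnb2. Their probes were 60 bases long, and the first 30 bases are shown here because the values of each gene rest on this stretch of its transcript. For the pair of genes where a second probe gave the same call, both probes are given. The Hcn2 probes are shown as well, since they differed in their call.
Scn3a, brighter probe: tccactttctggatggtgttagcttacaag
Scn3a, other probe: gtaacaccctgctacactatctactgagaa
Scn7a: gtcagttacatcctcatatcatggttgatc
Scn4b: ttcctatctaactttataggcaatacagtg
Cacna1d: acacctggggacagttagctttggaatcgt
Cacna1g, brighter probe: aagaaagatgcgctgagtctctctggtttg
Cacna1g, other probe: catcttcaacggaaagcgagaaccattttg
Cacna2d1: ccttattatgttctctggacacttttgtgg
Cacnb2: tcaaaagctgtttgggtagctgccatctca
Hcn2, brighter probe: tgcgcccggctgtccccccatcgccctgcg
Hcn2, other probe: agaatatggatcaagtgcaatactcggccc

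The probes of 25 genes were well above background on all 6 arrays, those of 15 genes on no array, and those of 4 genes on some. By the brightest probe of each gene, the heart samples carried signal for all 4 calcium channel beta subunits and all 3 T-type alpha1 subunits. The second probes of Cacna1i and Cacna2d2 and the other probes of Scn8a were above background on no array. Of the sodium channel alpha subunits, the sensory neuron channels Scn9a and Scn11a and the brain channel Scn1a had no probe signal above background. The same held for the neuronal and retinal calcium channel subunits Cacna1b, Cacna1e, Cacna1f and Cacna2d4, for Cacng1 to Cacng5 and for Hcn3 and Hcn4. Cacna1d passed on the 3 sham arrays only, Cacna2d3 on 2 tail-suspension arrays, Cacng8 on 1 tail-suspension array, and Scn2a1 on 2 sham and all 3 tail-suspension arrays. A difference between the groups was tested for the 27 genes whose probe passed on all 3 arrays of either group, while 17 were not tested and have no known level beyond lying near or under the background.

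**Figure D1:**
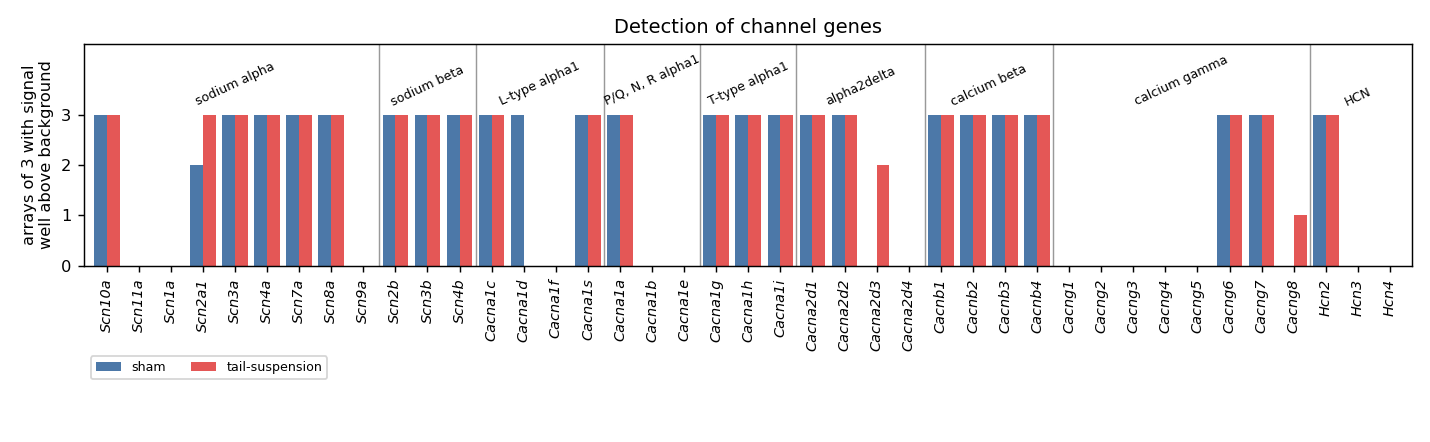
The bars give, for the 41 genes drawn, the number of arrays of 3 on which the probe of each was well above background, with sham in blue and tail-suspension in red and the genes grouped by the subunit they encode. A total of 23 genes reached 3 arrays in both groups and 14 have no bar, among them Hcn3 and Hcn4.

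Among the 27 tested genes, 2 were higher and 5 were lower in tail-suspended hearts at an adjusted p under 0.05 (limma, adjusted by Benjamini-Hochberg over all 28032 probes tested). Of the 25 genes above background on all 6 arrays, 2 were higher and 4 lower, since Cacna1d, the other gene that fell, entered the test only through the sham group, where it was higher. Both risers, Scn3a and Scn7a, are sodium channel alpha subunits. The 5 that fell were the sodium channel beta subunit Scn4b and the calcium channel genes Cacna1d, Cacna1g, Cacna2d1 and Cacnb2. Over all tested probes 10.8% were called higher and 9.57% lower, and no difference between these shares and the counts of channel genes was tested. The groups did not overlap for 11 of the 27 genes, 3 higher and 8 lower, against 44% of all tested probes. The median log2 difference, tail-suspension minus sham, was -0.08 over the 27 genes and -0.0049 over all tested probes, and 10 genes had a positive and 17 a negative difference. Leaving out sham replicate 1 or 2 or tail-suspension replicate 1 left Scn3a and Cacna1g as the called genes, and without tail-suspension replicate 3 these and Cacna1d were called. Without sham replicate 3 the called genes were Scn3a, Scn4b, Cacna1g, Cacna2d1 and Cacnb2, and without tail-suspension replicate 2 they were these with Scn7a, Scn3b and Scn4a. In heart tissue, fewer cells of a type and less RNA per cell cannot be told apart for any of these genes.

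**Figure D2:**
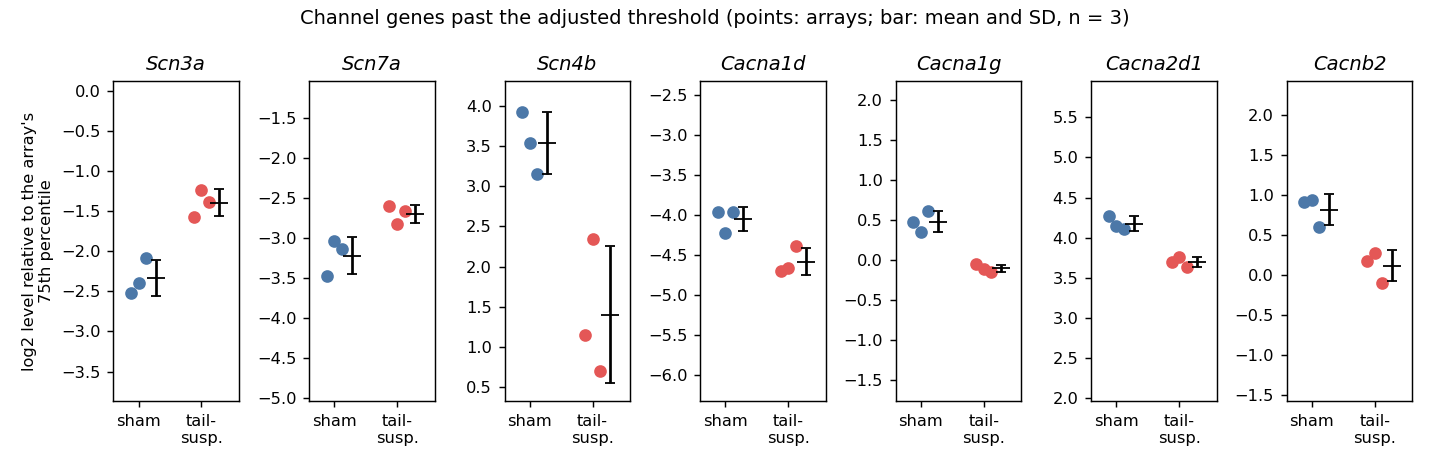
Each panel shows 1 gene past the adjusted threshold, with the log2 level relative to the array's 75th percentile on a vertical axis that spans 4 units in every panel, sham in blue and tail-suspension in red, and the mean and SD of the 3 arrays as a bar. No panel has overlapping groups. Scn4b has the widest gap between the means, 3.54 against 1.40, and the Cacna1d signals in tail-suspension were not well above background.

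Among sodium channel alpha subunits, Scn3a, a channel of the developing and injured nervous system, rose the most. Its log2 level, given here and below as the distance from the 75th percentile of its array, was -2.51, -2.40 and -2.09 in sham hearts and -1.57, -1.23 and -1.38 in tail-suspended hearts. Every tail-suspended heart lay above every sham heart. The difference was 0.94 ± 0.15 on the log2 scale (SE), which put tail-suspended hearts at 192% of the sham level, with an adjusted p of 0.0101. The other tested probe of Scn3a gave -2.43, -2.32 and -2.32 in sham and -1.62, -1.44 and -1.51 in tail-suspension, a difference of 0.84 ± 0.09 with an adjusted p of 0.00371. Both tested probes of Scn3a therefore separated the groups in the same direction. The remaining probe of Scn3a was above background on no array, with processed intensities of 3.06 to 4.47, and was not tested. With normexp background correction the difference of the brighter probe was 0.46 (adjusted p = 0.0237).

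Scn7a, a relative of the voltage-gated channels that responds to the sodium concentration and is known from glia and sensory neurons, was the other riser. It was at -3.47, -3.04 and -3.14 in sham hearts and at -2.60, -2.82 and -2.66 in tail-suspended hearts. The groups did not overlap, though the probe was dim on every array, with processed intensities between 29.0 and 59.4. The log2 difference was 0.52 ± 0.14 with an adjusted p of 0.0410, or 144% of the sham level. This call held in 5 of 18 alternative settings, and with normexp background correction the difference was 0.05 (adjusted p = 0.804). It was lost when sham replicate 1, 2 or 3 or tail-suspension replicate 1 or 3 was left out, with adjusted p from 0.0692 to 0.114.

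Markers of nerve and glia were read beside these genes, because both are known from nervous tissue. Of 14 neuronal markers 10 were tested, and 1 was higher, Prph, and 1 lower, Dbh, the enzyme that makes noradrenaline. Over all tested probes the shares were 10.8% higher and 9.57% lower. Of the 10, 6 had a positive and 4 a negative log2 difference, between -2.09 and 1.82 with a median of 0.22. The summed level of the neuronal list was 32.2 to 42.1 times the 75th percentile in sham and 23.1 to 38.7 times in tail-suspension, and Syt1 and Chga were above background on no array. Of 8 glial markers 5 were tested and none passed the adjusted threshold (limma; 1 at an unadjusted p under 0.05), with a summed level of 1.99 to 3.55 in sham and 1.73 to 3.36 in tail-suspension. Of the 5, 2 had a positive and 3 a negative log2 difference, between -0.86 and 0.64, and Gfap was above background on no array. The part of nerve or glia in the rise of these genes was not tested.

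Scn4a, the skeletal muscle sodium channel, was at -0.84, -0.85 and -0.87 in sham and at -1.51, -0.96 and -1.64 in tail-suspension. These groups did not overlap, but the spread of the tail-suspended hearts was wide and the difference of -0.51 ± 0.18 had an adjusted p of 0.0865. Without tail-suspension replicate 2 it was -0.72 with an adjusted p of 0.00837. Of the skeletal muscle markers, Myh1, Myh2, Myh4, Actn3 and Myod1 were above background on no array. In this list 6 of 11 genes were tested and 1, Mybpc2, was higher, beside 10.8% of all tested probes. Of the 6, 4 had a positive and 2 a negative log2 difference, between -0.52 and 1.24 with a median of 0.43. The summed level of the list was 18.6 to 24.1 in sham and 19.7 to 20.7 in tail-suspension. The alpha subunits Scn2a1, Scn8a and Scn10a had log2 differences between -0.13 and 0.31 and overlapping groups.

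The alpha subunit genes are partly neighbours. On the mm9 build, probes of Scn3a (chr2:65297940-65297999), Scn2a1 (chr2:65521868-65521927), Scn1a (chr2:66173498-66173557), Scn9a (chr2:66321218-66321277) and Scn7a (chr2:66514113-66514172) lie in 1 stretch of chromosome 2. Both genes that rose came from this stretch. Scn2a1 in it had a difference of 0.31 ± 0.18 (adjusted p = 0.259) and entered the test only through tail-suspension, where it was higher. The other probes of Scn2a1 had no signal above background, and neither had Scn1a and Scn9a.

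The sodium channel beta subunits are single-pass membrane proteins that bind the alpha subunit. Scn4b, whose product binds the alpha subunit covalently and can carry the blocking particle of resurgent sodium current in neurons, had the largest difference of all 27 tested genes. It stood at 3.93, 3.54 and 3.15 in sham hearts and at 1.14, 2.35 and 0.70 in tail-suspended hearts. All 3 tail-suspended hearts lay below all sham hearts, and replicate 2 lay nearest to them. Means were 3.54 ± 0.39 in sham and 1.40 ± 0.85 in tail-suspension (SD, n = 3), a difference of -2.15 ± 0.43 (SE) with an adjusted p of 0.0200, so that Scn4b fell to 22.6% of the sham level. The value stayed between -2.62 and -1.80 over 18 alternatives. The call was lost without sham replicate 1 or 2 (adjusted p of 0.0632 and 0.0708) and without tail-suspension replicate 1 or 3 (0.0590 and 0.0538).

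The order of the hearts for Scn4b was set beside markers that varied between these arrays. The haemoglobin gene Hbb-b1, a mark of red cells, was at 7.74, 7.06 and 6.87 in sham and at 4.93, 6.63 and 5.49 in tail-suspension, with replicate 2 again nearest to sham, and did not pass the threshold (-1.54 ± 0.45, adjusted p = 0.0536). Of 7 erythroid markers 5 were tested and none was called (limma; 3 at an unadjusted p under 0.05), the summed level was 427.7 to 689.0 in sham and 106.0 to 343.9 in tail-suspension, and Epb4.2 was above background on no array. Nppa, the atrial natriuretic peptide gene that also rises in loaded ventricles, was at 6.61, 7.64 and 7.25 in sham and at 9.08, 7.46 and 9.31 in tail-suspension (1.45 ± 0.51, adjusted p = 0.0886). Of 10 atrial markers 6 were tested and none was called (limma; 1 at an unadjusted p under 0.05), with a summed level of 104.2 to 207.3 in sham and 183.0 to 641.2 in tail-suspension. Nppa made up most of this sum on every array, so the sum says little of the other atrial genes. Of the 6, 5 had a positive log2 difference, with a median of 0.19 over the 6. Myl4 had the negative one (-0.63 ± 0.34, adjusted p = 0.217). Myl7 and Sln, which define atrial muscle, were above background on 1 array of each group, and Bmp10 on none. The part of these markers in the Scn4b difference was not tested.

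Among the other beta subunits, Scn2b differed by 0.12 ± 0.11 (adjusted p = 0.450). Its probe (chr9:44937945-44938004) lies close to that of Scn4b (chr9:44962045-44962104), so the large fall of Scn4b was not matched by this neighbour. Scn3b had the largest positive difference among uncalled genes, 0.71 ± 0.31 (adjusted p = 0.149), and was singled out after its values were seen. It was called higher when tail-suspension replicate 2 was left out.

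**Figure D3:**
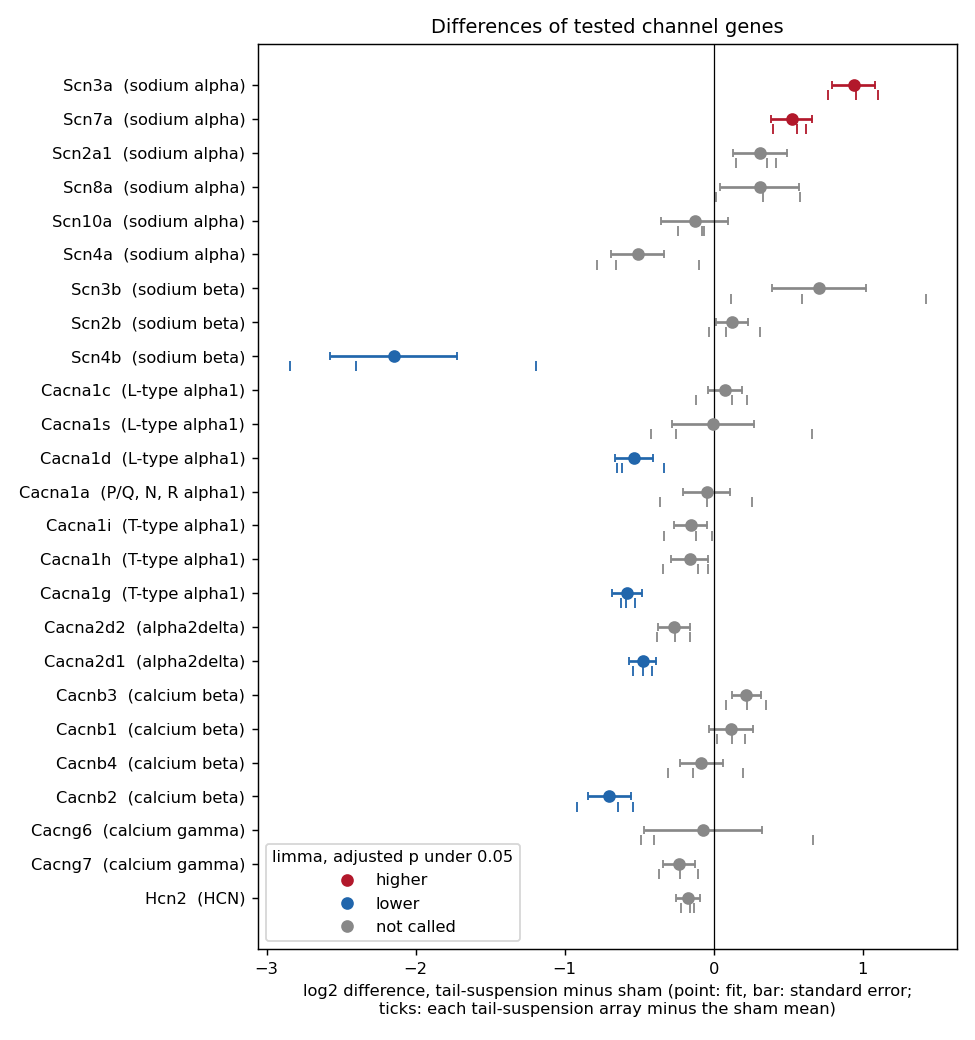
The horizontal axis is the log2 difference, tail-suspension minus sham, for the 25 genes drawn, grouped by subunit; points are the fitted difference, bars its standard error, and ticks the 3 tail-suspension arrays minus the sham mean, with genes called higher in red, lower in blue and the rest in grey. Scn4b lies furthest from 0 at -2.15, the 2 red genes are alpha subunits of sodium channels, and most other points lie between -0.70 and 0.71; the point of Cacna1d rests on tail-suspension signals not above background.

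Among the L-type alpha1 subunits, Cacna1c, the channel that triggers contraction in cardiomyocytes, did not change beyond its spread. Its levels were -1.58, -1.63 and -1.70 in sham and -1.76, -1.41 and -1.51 in tail-suspension. Tail-suspension replicate 1 lay below all sham hearts and the other 2 above the sham mean, and the difference was 0.08 ± 0.11 (adjusted p = 0.651). The sign was not stable, being -0.02 with normexp background correction. Cacna1d, the L-type channel of sinoatrial and atrial cells, was at -3.97, -4.22 and -3.96 in sham and did not rise well above background in any tail-suspended heart, where the measured values were -4.69, -4.67 and -4.38. With each of these values raised at least to the lowest signal well above background on its array, the fall was 1.29-fold. That is no strict bound, since replicate 3 at -4.38 did not pass although the lowest passing signal on its array was -4.46. The fit gave an adjusted p of 0.0325 (limma), for a gene that could be tested only because it passed in sham. It was called in 6 of 17 alternatives, and the second probe of Cacna1d, above background on 1 sham array, was not tested. Without sham replicate 1, 2 or 3 or tail-suspension replicate 1 or 2 its adjusted p was 0.0566 to 0.0968. Cacna1s, the skeletal muscle L-type channel, had a difference of -0.0063 ± 0.27 and overlapping groups. Of the P/Q-, N- and R-type channels, which serve transmitter release in neurons, Cacna1a alone had signal, and it differed by -0.05 ± 0.16 (adjusted p = 0.846).

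T-type channels were represented by 3 genes, each with a negative difference by its brightest probe, of which 1 was called. Cacna1g, a T-type channel of the sinoatrial and atrioventricular nodes, was at 0.47, 0.35 and 0.61 in sham hearts and at -0.06, -0.12 and -0.15 in tail-suspended hearts. The 3 tail-suspended hearts lay close together and below all sham hearts. Means were 0.47 ± 0.13 and -0.11 ± 0.05 (SD, n = 3), and the difference was -0.58 ± 0.10 (SE) with an adjusted p of 0.0128, or 66.8% of the sham level. The other probe of Cacna1g was at -0.45, -0.10 and -0.02 in sham and at -1.61, -1.33 and -1.28 in tail-suspension, a difference of -1.22 ± 0.15 with an adjusted p of 0.00539. Both probes were thus lower, by different amounts, and their mean gave -0.90. The call was kept in 16 of 18 alternatives, which included leaving out any 1 array. Cacna1h, the other T-type channel known from heart, was at 0.29, 0.37 and 0.07 in sham and at 0.14, -0.09 and 0.20 in tail-suspension, with a difference of -0.16 ± 0.12 (adjusted p = 0.380). Another Cacna1h probe passed background on 2 tail-suspension arrays only and was not tested. Its mean level was -4.61 in sham and -4.05 in tail-suspension, the other direction. Cacna1i differed by -0.155 ± 0.11 (adjusted p = 0.350).

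The alpha2delta subunits are extracellular proteins that raise the number of calcium channels at the surface. Cacna2d1, the member that predominates in heart, was at 4.27, 4.14 and 4.10 in sham and at 3.70, 3.76 and 3.63 in tail-suspension. The spread within each group was small, and the groups were separated. The difference was -0.48 ± 0.09 with an adjusted p of 0.0173, or 71.9% of the sham level. A second probe of Cacna2d1, at 3.74, 3.20 and 3.69 in sham and 3.38, 3.21 and 3.21 in tail-suspension, gave -0.28 ± 0.16 and was not called (adjusted p = 0.244). The mean of both probes was -0.38 and was not called either (adjusted p = 0.0512). Leaving out sham replicate 1 or 2 or tail-suspension replicate 1 or 3 lost the call of the brighter probe, with adjusted p of 0.0514 to 0.0646. Cacna2d2 was at -0.62, -0.71 and -0.88 in sham and at -1.11, -0.90 and -1.0 in tail-suspension. Its groups were separated by a narrow margin, and the difference of -0.27 ± 0.11 did not pass the threshold (adjusted p = 0.120).

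The beta subunits sit inside the cell on the alpha1 subunit and shape its trafficking and gating. Cacnb2, the main beta subunit of cardiac L-type channels, was at 0.91, 0.94 and 0.60 in sham and at 0.17, 0.27 and -0.10 in tail-suspension. All tail-suspended hearts lay below the sham range, and the difference was -0.70 ± 0.14 with an adjusted p of 0.0212, or 61.6% of the sham level. The other probe of Cacnb2, in another part of the gene, was at -1.07, -1.38 and -1.0 in sham and at -1.23, -1.42 and -1.46 in tail-suspension. There the groups overlapped, the difference was -0.22 ± 0.13 (adjusted p = 0.257), and the mean of both probes was -0.46 (adjusted p = 0.0244). The call of the brighter probe was lost without sham replicate 1 or 2 or tail-suspension replicate 1 or 3, at adjusted p of 0.0527 to 0.0801. Cacnb3 was at -1.48, -1.48 and -1.50 in sham and at -1.14, -1.40 and -1.26 in tail-suspension, above the sham range in each heart, yet the difference of 0.22 ± 0.10 had an adjusted p of 0.146. Cacnb1 and Cacnb4 differed by 0.12 and -0.08 and had overlapping groups. Of the gamma subunits, a family that mostly serves glutamate receptors in brain, Cacng6 and Cacng7 were tested, with differences of -0.07 ± 0.39 and -0.23 ± 0.11, and neither was called.

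Of the pacemaker channels, the HCN family that opens on hyperpolarisation and binds cAMP, Hcn2 had signal above background on all arrays. It was at 5.17, 5.10 and 5.06 in sham and at 4.98, 4.95 and 4.89 in tail-suspension by the brighter probe. The hearts of each group lay within narrow ranges that did not overlap, but the difference was small, -0.17 ± 0.08, and did not pass the threshold (adjusted p = 0.171). The other Hcn2 probe was at 2.06, 1.45 and 1.64 in sham and at 1.09, 0.86 and 1.11 in tail-suspension, a difference of -0.70 ± 0.17 that was called lower (adjusted p = 0.0342). With the mean of both probes Hcn2 was lower by a log2 difference of -0.44 (adjusted p = 0.0378), so the call for Hcn2 depends on which probe is read. For Hcn4, the main channel of the sinoatrial node, processed intensities were 7.75, 10.1 and 3.35 in sham and 7.37, 4.79 and 4.13 in tail-suspension. Hcn3 gave 4.57, 3.55 and 3.54 against 3.38, 4.86 and 4.19. Neither was above background, so no difference in Hcn3 or Hcn4 could be measured in these samples.

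A total of 16 genes had more than 1 probe, and for 8 of them at least 2 probes were tested. In 7 of the 8 the probes had the same sign, and in 5 they gave the same call. Scn3a was called higher and Cacna1g lower by both tested probes. Cacna2d1, Cacnb2 and Hcn2 were called lower by 1 probe each, with the other probe negative and not called. For Cacna1a and Cacng7 neither probe was called, and for Cacna1s the probes had opposite signs (-0.0063 and 0.17), both within their spread. Scn4b and Scn7a had 1 probe each, so their values could not be set against a second stretch of the transcript.

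**Figure D4:**
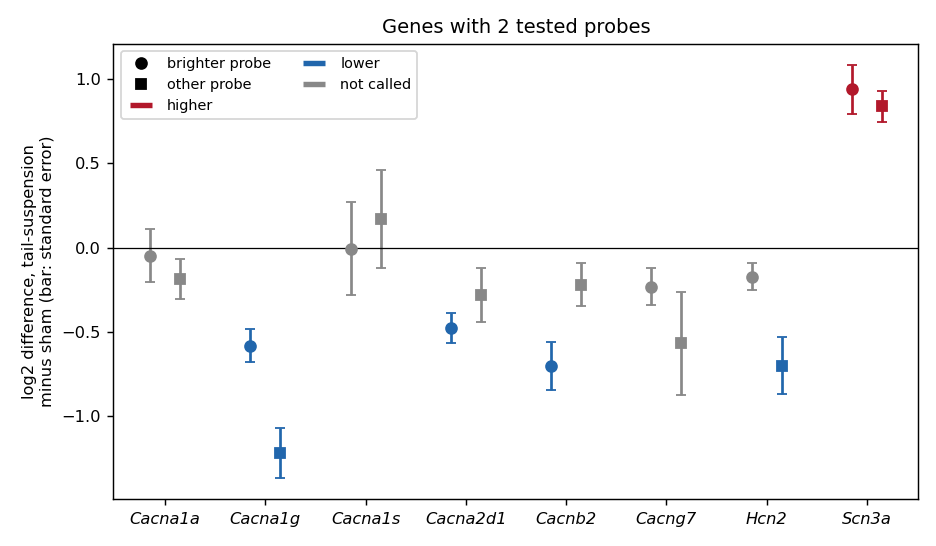
For each of the 8 genes with 2 tested probes, the log2 difference, tail-suspension minus sham, is shown with its standard error, with a circle for the brighter probe and a square for the other one, in red where called higher, blue where called lower and grey otherwise. Both points are coloured for Scn3a (0.94 and 0.84) and Cacna1g (-0.58 and -1.22), and only 1 of the 2 for Cacna2d1, Cacnb2 and Hcn2.

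The arrays lay in 2 rows of 1 slide and were read in 1 scan. The first row held the 3 sham arrays and tail-suspension replicate 1, and the second row held tail-suspension replicates 2 and 3. With the row as a block, which compares replicate 1 with sham inside the first row, the log2 differences were 0.76 for Scn3a, 0.62 for Scn7a, -2.40 for Scn4b, -0.53 for Cacna1g, -0.47 for Cacna2d1 and -0.64 for Cacnb2. Cacna1d is given no value there, since its tail-suspension signals were not well above background. This arm is 1 array, assumed to vary like the others, and none of the 7 genes passed the limma threshold, with adjusted p from 0.122 to 0.181. Their direction was fixed beforehand, because the groups of all 7 do not overlap. At an unadjusted p under 0.05 this comparison held 3 higher and 6 lower genes. The share of all probes at that unadjusted threshold is not given, so these counts are not read as a result. The second row held no sham array and gives no value of its own.

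Promoter sequences from RefSeq (GRCm38.p6) were at hand for 32 of the 44 genes, among them 5 of the 7 that changed but not Scn3a or Cacna1g. The 250 bases before the start are shown for Scn4b and Scn7a, the largest fall and a rise among genes whose start in the table matched that of the gene. Capitals mark matches, on either strand, to any of 6 motifs searched: the E-box CACGTG, the GATA motif AGATAA, the T-box motif GGTGTGA, the SP1 motif GGGCGG, the glucocorticoid half-site TGTTCT and the MEF2 motif CTANNNNTAG.
Scn4b, chr9:45138374-45138623, plus strand: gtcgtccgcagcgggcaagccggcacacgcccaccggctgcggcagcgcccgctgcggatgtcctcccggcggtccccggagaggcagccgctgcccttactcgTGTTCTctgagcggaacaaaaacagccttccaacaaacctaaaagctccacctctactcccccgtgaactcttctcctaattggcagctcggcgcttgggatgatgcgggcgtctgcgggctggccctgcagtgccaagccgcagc
Scn7a, chr2:66784911-66785160, minus strand: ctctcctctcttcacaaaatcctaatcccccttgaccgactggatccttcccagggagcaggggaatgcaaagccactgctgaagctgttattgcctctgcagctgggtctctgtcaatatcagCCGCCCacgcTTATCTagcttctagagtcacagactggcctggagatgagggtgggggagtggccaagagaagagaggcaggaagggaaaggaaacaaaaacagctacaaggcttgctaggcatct
The Scn4b window was 66.0% G and C and held 1 glucocorticoid half-site, a motif found in 16.1% of 32851 promoter windows of this length. The Scn7a window was 53.2% G and C and held 1 SP1 motif and 1 GATA motif, found in 32.7% and 9.99% of the windows. The E-box, T-box and MEF2 motifs, found in 6.02%, 3.33% and 3.20% of the windows, had no match in either. These matches are letters in a window and no measure of binding.

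Genes that work with these channels were read from the same fit. The counts of each list below stand beside 10.8% called higher and 9.57% lower over all tested probes, and no difference from these shares was tested. Of 26 genes for calcium release, reuptake and buffering, 24 were tested, and 1 was higher and 9 were lower, with a median log2 difference of -0.22. The falls included Casq1 (-1.83 ± 0.40, adjusted p = 0.0263), the calsequestrin best known from skeletal muscle, Jph2 (-1.09 ± 0.15, adjusted p = 0.00713), which holds the L-type channel close to the release channel, and Asph (-1.01 ± 0.15, adjusted p = 0.00877), whose locus encodes junctin. Jph1 rose (0.62 ± 0.14, adjusted p = 0.0273). The release channel Ryr2 (0.16, adjusted p = 0.438), the exchanger Slc8a1 (0.15, adjusted p = 0.558) and the calcium pump Atp2a2 (-0.29, adjusted p = 0.0599) did not pass the threshold. With no filter the list held 0 higher and 2 lower genes, and with the methods' t-test 0 and 5. The count of 9 lower was 3, 2 and 5 without sham replicate 1, 2 and 3, 3 without tail-suspension replicate 3, 2 with the replicate block and 0 with the slide row as a block. The 1 higher gene was lost without sham replicate 2 or 3 or tail-suspension replicate 1 or 3 and with either block, and without tail-suspension replicate 2 the count was 2.

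Among 29 regulators and anchors of sodium and calcium channels, 26 were tested, with 5 higher and 5 lower and a median of -0.15. The falls were led by Akap5, an anchor of protein kinase A (-3.87 ± 0.25, adjusted p = 0.00144). It was at -0.25, -0.43 and 0.19 in sham and at -3.91, -3.69 and -4.50 in tail-suspension, where 2 of 3 arrays were well above background. Akap5 thus entered the test only through sham, where it was higher. With only probes above background on all 6 arrays tested, the list held 4 lower genes. Rem1 (-0.71 ± 0.15, adjusted p = 0.0228), a small G protein that binds calcium channel beta subunits, and Stac (-0.61 ± 0.15, adjusted p = 0.0342) also fell. Gpd1l (0.83 ± 0.16, adjusted p = 0.0187) and Dlg1 (0.45 ± 0.10, adjusted p = 0.0263) rose. The count of 5 higher was 2 and 1 without sham replicate 1 and 2, and 1 and 2 without tail-suspension replicate 1 and 3. That of 5 lower was 1, 1 and 3 without sham replicate 1, 2 and 3 and 1 without tail-suspension replicate 3. No filter left 1 higher and 1 lower, and the methods' t-test 2 and 2. The replicate block left 2 higher and 2 lower, and the row as a block 0 and 2.

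The 22 genes listed for the conduction system, mainly transcription factors and gap junction genes, are not all particular to it. Of these, 17 were tested, and 2 were higher and 4 lower, with a median of 0.21. Gata6 (0.78 ± 0.15, adjusted p = 0.0188) and Tbx5 (0.56 ± 0.12, adjusted p = 0.0238) rose. Gja1, the main gap junction gene of the ventricle, fell (-0.77 ± 0.10, adjusted p = 0.00660), as did Prrx1 (-0.62 ± 0.08, adjusted p = 0.00675) and Gata4 (-0.52 ± 0.13, adjusted p = 0.0363). The count of 2 higher was 0 without sham replicate 2 or tail-suspension replicate 3, 1 without sham replicate 1 or 3 or tail-suspension replicate 1, and 4 without tail-suspension replicate 2. That of 4 lower was 3 without tail-suspension replicate 1 and 2 without any other array. No filter left 0 higher and 2 lower, and the methods' t-test 0 and 3. The replicate block left 1 higher and 2 lower, and the row as a block left none of either. The nodal factors Isl1 and Shox2 and the Purkinje marker Cntn2 were above background on no array. The nodal factors Tbx3, Tbx18 and Tbx2 were above background on all 6 arrays and not called, with log2 differences of 0.21, -0.01 and 0.35. Hcn4 was likewise not above background, and the part of nodal tissue in the fall of Cacna1g and Cacna1d was not tested.

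The tissue label was checked by 12 cardiomyocyte markers, all well above background on all 6 arrays. None was higher and 1, Actc1, was lower (-0.33 ± 0.08, adjusted p = 0.0364), and their summed level was 6370 to 6734 times the 75th percentile in sham and 5960 to 6001 times in tail-suspension. Of 8 neutrophil markers, 7 were on the array and 6 were tested, with S100a8, S100a9 and Retnlg higher and a summed level of 144.2 to 172.1 in sham and 207.6 to 236.7 in tail-suspension. The other lists gave 1 lower of 5 ventricular, 1 lower of 5 smooth muscle, 1 higher and 2 lower of 6 endothelial, 1 lower of 7 fibroblast and 0 of 1 adipocyte markers tested. The part of any of these cells in the channel differences was not tested.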

How the data were processed

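Gene expression was measured on 1-colour Agilent arrays of 3 sham and 3 tail-suspended mouse hearts. The authors deposited the scanner output, in which Agilent Feature Extraction 10.7.1.1, per the labels, gives each of 62976 spots a background-corrected intensity. They also deposited 1 table of processed log2 values for these 6 arrays, with medians of 4.331 to 4.332, correlated at 0.9991 or more with the log2 intensity and with sorted columns within 0.117, so close to quantile normalized; its direction is that of the intensity and no centring was found. No saturated spots were found, 146 to 212 outlier spots per array were left out, and 50.9% to 53.4% of probes were well above background, which limits the precision together with the number of arrays.

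From the log2 intensity the log2 of the 75th percentile over the 59305 non-control spots of its array (301.6 to 376.3) was subtracted, and spots of a probe were averaged. In R 4.3.3, limma 3.58.1 (lmFit, eBayes, no covariate) was fitted to the 28032 probes well above background, by at least 50% of spots, on every array of at least 1 group, with Benjamini-Hochberg adjustment over all of them. Of these, 29 probes lacked an array and none of them was a channel probe. The smallest two-sided p of an exact permutation test of 3 against 3 is 0.1, so none was run. For a group not above background on any array, the fold was taken with its values raised at least to the lowest signal well above background on each array. This fold is no strict bound, since the limit of a given probe can lie higher. Each array is 1 mouse, so p-values rest on the spread between mice, which eBayes moderates by the spread of all tested probes. In the tail-suspension group this spread also holds any effect of the slide row.

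The genes and lists were chosen with earlier results of these data known. Values per array are given for genes past the adjusted threshold, for genes above background on all arrays with separated groups, and for a set of cardiac channel genes whatever their change; a few genes are counted but not reported by name here; list genes are named among the 3 largest changes per direction or as defining markers. The steps were tested on simulated data. Alternatives were normexp background correction (offset 50), quantile normalization or the authors' log2 values, the percentile of detected probes only, every probe tested or only those above background on all 6 arrays, outlier spots included, robust eBayes with a trend, the methods' t-test, the replicate number or the slide row as a block, the mean of all tested probes, and each array left out. Probe coordinates are on mm9, as in the files, and promoters are from RefSeq on GRCm38.p6.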

Additional observations from a re-analysis of the deposited data

How the results depend on the processing

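Of 18 alternatives, the count of channel genes called higher, 2 as reported, was 1 with normexp background correction, quantile normalization, the authors' log2 values, no filter, an intensity trend with robust eBayes, the methods' t-test and the replicate block, 0 with the slide row as a block, and 1 to 3 with 1 array left out. The count called lower, 5 as reported, was 0 with no filter and with the row as a block (6 in each at an unadjusted p under 0.05, limma), 2 with the adjusted p of the methods' t-test (3 higher and 6 lower at its own unadjusted threshold), 4 with the replicate block, and 1 to 5 with 1 array left out; without sham replicate 1 or 2 or tail-suspension replicate 1 it was 1, and without tail-suspension replicate 3 it was 2. The replicate block dropped Scn7a and Cacna1d (adjusted p of 0.0925 and 0.0508); the samples share only a number, as deviations of same-numbered arrays correlated at -0.02, -0.0176 and 0.0495. For the counts at an unadjusted threshold the share of all probes is not given, so they are not read as a result. The median log2 difference ranged from -0.1896 (without tail-suspension replicate 1) to -0.0432 with 1 array left out. Scn3a kept its call in 17 of 18 alternatives, Cacna1g in 16, Scn4b, Cacna2d1 and Cacnb2 in 11 each, Cacna1d in 6 of 17 and Scn7a in 5; the mean of all probes dropped Cacna2d1 (-0.38, adjusted p = 0.0512). Cacna1c reversed to -0.0184 with normexp and -0.1214 with the row as a block. Over all probes, 3023 were called higher and 2683 lower as reported, against 1041 and 790 with no filter, 1532 and 1248 with the methods' t-test, 1714 and 1403 with the replicate block, 320 and 177 with the row as a block, and 1008 to 2885 and 749 to 2701 with 1 array left out. With no filter more probes were adjusted over, and leaving out an array or blocking on the row compares fewer arrays; the cause of the other changes was not tested. A slide block was impossible with 1 slide. Signals near the background limit what can be said of the 17 genes that were not tested.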
